A study of Homo sapiens with 6 samples.

Results

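The elements described here are ancient long interspersed elements (LINEs) outside L1 and outside the names L2, L2a, L2b and L2c. They are L3 and its relatives, CR1, L4, the L2-like elements named after crocodilians, MamRTE1 and the X-numbered LINEs. They were picked out by a rule on repeat names that uses no measured value, but the rule was set with earlier results of these data known. Of 433837 repeat loci listed for HEK293T, a human embryonic kidney cell line, 7482 loci (1.72%) under 29 repeat names fell in this set. The U7 ASO group was 3 libraries of HEK293T transfected at 100 nM with a chimeric antisense oligonucleotide (ASO) against U7 small nuclear RNA. The control group was 3 libraries of the same line given an ASO against GFP, which the labels name as the control, at the same dose. The submitters label the cells of the first group as a U7 snRNA knockdown and those of the second as wild type, and both groups were transfected with the same reagent, so no library comes from untransfected cells. U7 is a small RNA needed to cut histone messenger RNAs at their ends, and the series is about its part in holding down lincRNAs and the LTR12 repeats of the HERV1 class.

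LINEs are retrotransposons that copy themselves through RNA with a reverse transcriptase of their own. L3 belongs to the CR1 clade, which is named after the chicken repeat, L4 and MamRTE1 belong to the RTE lineages, and L2 elements form a related clade. These families stopped moving long ago in the mammalian lineage, and their copies in the human genome are old, mutated and mostly truncated fragments. The endings Mam, AMi, Crp, Croc and the start Plat in their names refer to mammals, the American alligator, the saltwater crocodile, crocodilians and the platypus, whose genomes or lineages gave the consensus sequences. A read in such a copy can come from a transcript of a gene that crosses it, and the 2 sources cannot be told apart in these counts. The files give no coordinates or lengths for a locus, so no sequence or genome position is shown, and levels are not compared between names.

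The libraries held 2089822, 2348997 and 2819540 reads in repeat loci in the U7 ASO group and 2025985, 1926892 and 1980793 reads in the control group. These totals cover repeat loci and are not the sequencing depth. Repeat copies under the name U7, 16 in the table, had 10, 4 and 6 reads with the U7 ASO and 10, 6 and 12 with the control ASO, which is too few to check the knockdown. The tables list no genes, so neither the U7 gene nor markers of the cell line could be checked. Ancient LINEs took 21953, 25276 and 26550 of these reads in the U7 ASO libraries and 21852, 21268 and 23985 in the control libraries. Between 1957 and 2673 of their loci had a read in a U7 ASO library, and between 1766 and 2217 in a control library, where totals were also lower. Coverage was thin: the median locus had 5 reads over all 6 libraries, 2255 loci (30.1%) had no more than 2, and 290 had a read in every library. The 10 loci with the most reads held 20.7% of the set's reads.

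As a whole, RNA from ancient LINEs was slightly lower after the U7 ASO, and 1 of its 23 tested names passed the test. Levels are given as CPM, the read count per 1000000 reads of the library after scaling. Reads summed over the 7482 loci came to 10321, 10390.3 and 9446 CPM in the U7 ASO libraries, against 11699.6, 11414 and 11568 CPM in the control libraries, so that every U7 ASO library lay below every control library. The means were 10052 ± 526 and 11561 ± 143 CPM (SD, n = 3 each), a log2 ratio of −0.20, given as a description with no test. In bulk RNA, fewer cells with such transcripts and less of the RNA in each cell cannot be told apart. Without MamRTE1_dup7_4441273, the single locus with the most reads, the log2 ratio was −0.14, and with library totals as the only scaling it was −0.15. As a share of library totals, the set took 1.050%, 1.076% and 0.942% with the U7 ASO. In controls it took 1.079%, 1.104% and 1.211%, so the nearest libraries of the groups then almost met. MamRTE1 held 61.0% of the difference in CPM between the groups and the L2-like names 18.0%.

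L3, L3b and Plat_L3, which together held 57.6% of the set's reads in 4854 listed loci, showed no change past the test. Summed over the 3 names the values were 6248, 6215 and 5757 CPM in the U7 ASO libraries, against 6005, 6242 and 6582 CPM in the control libraries, and the groups overlapped. L3 itself, the largest name with 3813 listed loci, averaged 4765 ± 228 CPM with the U7 ASO and 4872 ± 256 CPM in controls (SD, n = 3 each). Its log2 fold change was −0.03, with a 95% interval from −0.32 to 0.25 (adjusted p = 0.946, edgeR quasi-likelihood test). L3b averaged 974 ± 37.1 and 1029 ± 36.9 CPM (−0.08 on the log2 scale, adjusted p = 0.877), and the platypus-derived Plat_L3 335 ± 30.3 and 375 ± 32.0 CPM (−0.16, adjusted p = 0.764), each with the U7 ASO first and the controls after it. The groups of Plat_L3 did not overlap, at 300.3 to 355 CPM with the U7 ASO and 356 to 412 CPM in controls, and those of L3 and L3b did.

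None of the 3 L4 names passed. L4_A_Mam had 206, 325 and 336 CPM in the U7 ASO libraries, against 280.0, 252 and 290 CPM in the control libraries, a log2 fold change of 0.08 (95% interval −0.38 to 0.54, adjusted p = 0.919). U7 ASO replicate 1 was the lowest of the 6 libraries for L4_A_Mam and the other 2 U7 ASO libraries the highest. L4_B_Mam had 106, 153 and 193 CPM with the U7 ASO and 159, 113 and 150.0 CPM in controls (change on the log2 scale 0.10, adjusted p = 0.911), again with U7 ASO replicate 1 lowest. L4_C_Mam averaged 345 ± 55.2 CPM with the U7 ASO and 401 ± 43.5 CPM in controls (log2 fold change −0.22, adjusted p = 0.712), and 44.2% of its reads over all libraries came from 1 locus, L4_C_Mam_dup266_2409507.

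MamRTE1, a mammalian element of the RTE lineage with 681 listed loci and 23.3% of the set's reads, was lower in every U7 ASO library but did not pass the test. It had 2385, 2151 and 1772 CPM in the U7 ASO libraries, against 3356, 2972 and 2738 CPM in the control libraries. The means of 2103 ± 309 and 3022 ± 312 CPM (SD, n = 3 each) gave a log2 fold change of −0.52 (SE 0.16, 95% interval −0.86 to −0.19, unadjusted p = 0.00404, adjusted p = 0.105, edgeR quasi-likelihood test across all names). The groups did not overlap for MamRTE1, which was true of 20.1% of all 2236 repeat names tested. Its call changed with the setting: the adjusted p was 0.0453 with limma-voom, 0.0144 without U7 ASO replicate 1 and 0.524 without U7 ASO replicate 3.

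A single copy, MamRTE1_dup7_4441273, held 31.7% of the reads of MamRTE1 and 56.4% of the difference between the groups. This locus had 756, 512 and 447 CPM in the U7 ASO libraries, against 1347, 1129 and 797 CPM in the control libraries, on the scale of the repeat names. The other 680 loci together had 1629, 1639 and 1325 CPM with the U7 ASO, against 2009.9, 1843 and 1941 CPM in controls, so the groups stayed apart without the leading copy. With that copy left out the log2 fold change of MamRTE1 was −0.34 (adjusted p = 0.333). Tested as a single locus, MamRTE1_dup7_4441273 differed by −0.73 on the log2 scale, which did not pass (SE 0.26, adjusted p = 0.198), and it passed in 3 of the 15 settings in which loci were tested. Of the 42 MamRTE1 loci tested, 29 had a negative and 13 a positive log2 fold change, and none passed. Among all 14380 loci tested, 6795 were negative and 7585 positive.

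The L2-like names are few in copies but held the 1 name of the set that changed. L2-1_Crp, named after the saltwater crocodile and listed at 3 loci, fell to 107, 56.3 and 48.4 CPM in the U7 ASO libraries, against 383, 268 and 186 CPM in the control libraries. The means were 70.5 ± 31.6 and 279 ± 99.3 CPM (SD, n = 3 each), with a log2 fold change of −1.99 (SE 0.31, 95% interval −2.64 to −1.34, adjusted p = 4.06e-04, edgeR quasi-likelihood test). Every U7 ASO library lay below every control library. L2-1_Crp_dup1_4766292 held 98.7% of the reads of this name, so the change is that of 1 locus. The related names L2-1_AMi and L2-3_Crp, with 101 and 189 listed loci, did not pass. L2-1_AMi averaged 127 ± 9.72 CPM with the U7 ASO and 160.5 ± 24.6 CPM in controls (log2 fold change −0.34, adjusted p = 0.534), and L2-3_Crp 203 ± 34.5 and 232 ± 30.7 CPM (−0.20, adjusted p = 0.754) in the same order.

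Of the 8 CR1 names, 5 had enough reads to be tested, all 5 had a negative log2 fold change, and none passed. CR1-16_AMi, an alligator-derived name with 28 listed loci, had 23.0, 29.6 and 20.6 CPM in the U7 ASO libraries, against 55.1, 36.5 and 46.8 CPM in the control libraries. Its groups did not overlap, and its log2 fold change of −0.92 (95% interval −1.67 to −0.17, unadjusted p = 0.0190) had an adjusted p of 0.223. CR1-L3A_Croc had 11.8, 11.1 and 8.89 CPM with the U7 ASO, against 14.99, 12.9 and 17.8 CPM in controls (log2 fold change −0.53, adjusted p = 0.749), which also did not overlap. CR1_Mam, the mammalian consensus with the most CR1 reads, averaged 143 ± 32.3 and 160 ± 19.2 CPM with the U7 ASO and in controls (−0.16, adjusted p = 0.826). CR1-3_Croc averaged 64.6 ± 18.4 CPM with the U7 ASO and 74.5 ± 4.32 CPM in controls (−0.20, adjusted p = 0.821). CR1-13_AMi rested on few reads, 8, 0 and 20 with the U7 ASO and 13, 11 and 22 in controls, and its 95% interval ran from −3.20 to 1.02.

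The X-numbered LINEs, 11 names with 4.23% of the set's reads, showed no name past the test among the 8 tested. X7A_LINE, X7B_LINE and X7C_LINE had log2 fold changes of 0.25, 0.28 and 0.29 (adjusted p from 0.761 to 0.819). X7C_LINE was the 1 tested name of the set whose U7 ASO libraries all lay above the controls, at 34.3, 34.5 and 38.4 CPM with the U7 ASO, against 30.5, 33.8 and 23.6 CPM in controls, and the nearest values of the groups differed by less than 1 CPM. X6B_LINE averaged 94.4 ± 13.5 CPM with the U7 ASO and 125 ± 33.7 CPM in controls (−0.40, adjusted p = 0.519), and 53.0% of its reads came from X6B_LINE_dup36_1090774. X6A_LINE and X9_LINE had log2 fold changes of −0.16 and 0.00 (adjusted p = 0.843 and 0.997), and X9_LINE averaged 83.2 ± 20.3 CPM with the U7 ASO and 83.1 ± 5.17 CPM in controls. X2_LINE and X8_LINE had so few reads that their intervals reached from −2.58 to 0.72 and from −2.50 to 1.14.

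**Figure D1:**
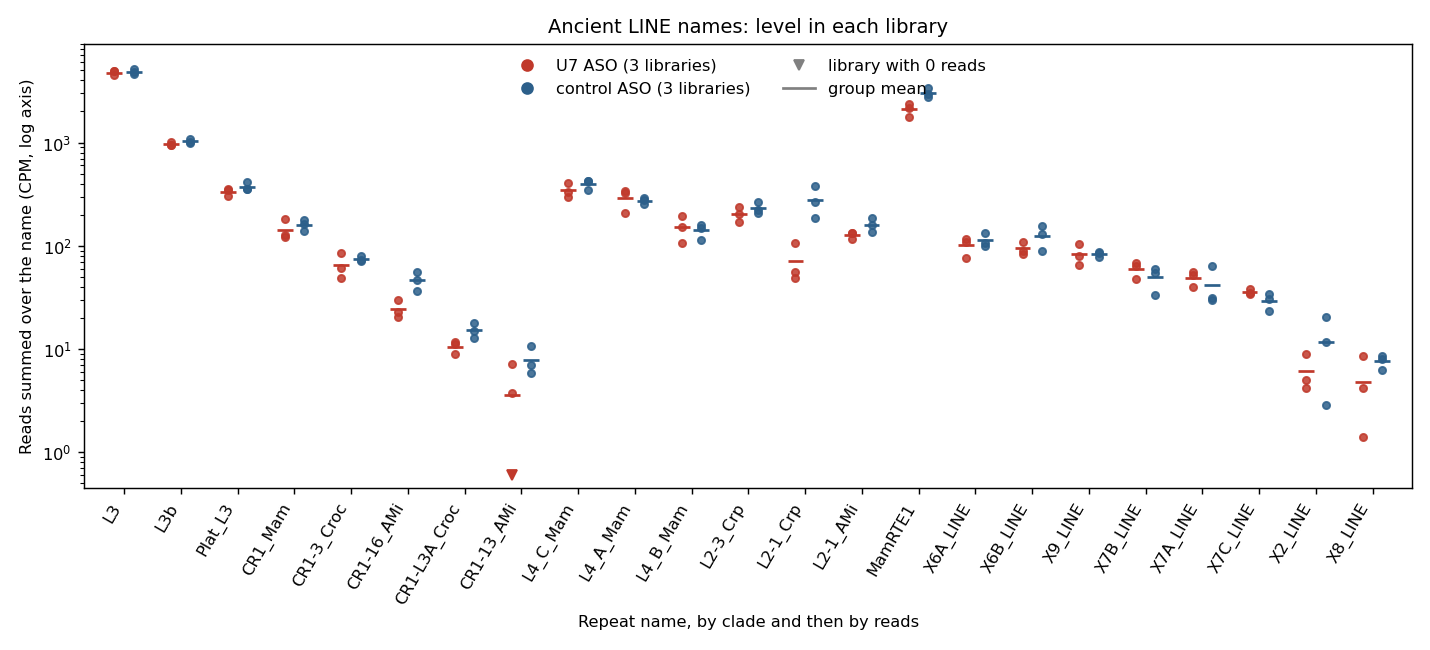
CPM of each tested ancient LINE name in the 3 U7 ASO libraries (red, left) and the 3 control libraries (blue, right), on a log axis, with group means as bars and libraries at 0 reads as triangles. The groups stand apart at L2-1_Crp (70.5 against 279 CPM on average) and, less so, at MamRTE1 (2103 against 3022 CPM), while L3 lies at 4765 and 4872 CPM.

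In all, 1 of the 23 tested names fell, none rose and 22 did not pass. Over all repeat names, 2.55% passed, 1.52% as raised and 1.03% as lowered. Negative log2 fold changes were the more common, at 17 of 23 names with a median of −0.20, where all tested names had 1131 of 2236 and a median of −0.01. An unadjusted p below 0.05 was found for 3 names, L2-1_Crp, MamRTE1 and CR1-16_AMi, and for 14.6% of all names. The groups did not overlap for 7 of the 23 names, 6 of them lower with the U7 ASO, against 20.1% of all names in either direction. Over all 2236 names, 222 were apart and higher and 227 apart and lower with the U7 ASO. For 16 names the 95% interval lay within 1 log2 unit of no change, and for 7 it reached beyond. The 6 names that were not tested, CR1-11_Crp, CR1-12_AMi, CR1-L3B_Croc, X1_LINE, X5B_LINE and X7D_LINE, hold 19 listed loci and between 1 and 46 reads over all libraries.

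**Figure D2:**
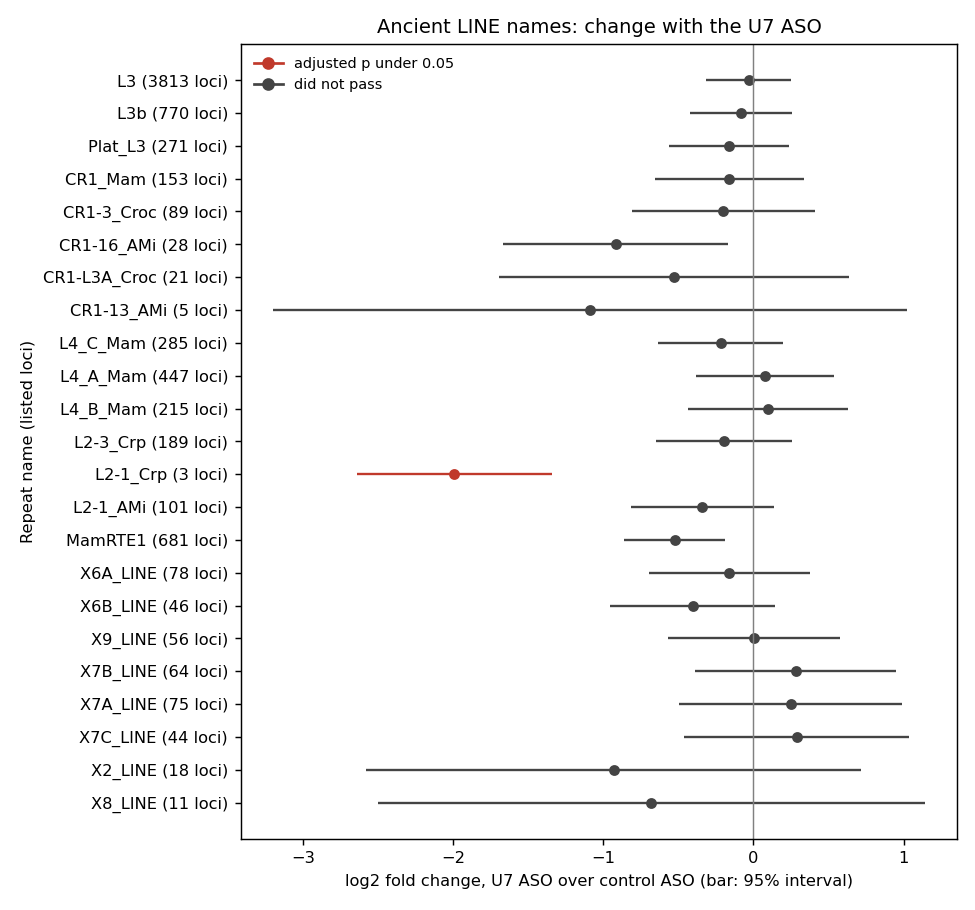
Log2 fold change, U7 ASO over control ASO, of the 23 tested names with its 95% interval (edgeR). L2-1_Crp, at −1.99, is the name that passed, and the intervals of L3, L3b and L4_A_Mam include 0 and stay within 1 log2 unit of it.

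L2 and MIR elements, the other common ancient interspersed repeats, were set beside these names. The 4 L2 names (L2, L2a, L2b and L2c) had a median log2 fold change of −0.12 and the 5 MIR names one of −0.01, and none of these 9 passed. L2a, for instance, averaged 24723 ± 752 CPM with the U7 ASO and 26819 ± 802 CPM in controls (log2 fold change −0.12, adjusted p = 0.713). All 4 L2 names were lower in every U7 ASO library than in any control library, as was MIRc among the 5 MIR names. Of all 2236 names tested, 227 were apart and lower in this way. These counts are descriptions, and no difference between the sets was tested.

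At the level of single copies, 292 of the 7482 loci had enough reads to be tested, and they held 58.3% of the set's reads. Of these, 7 were raised, 1 was lowered and 284 did not pass. This balance changed with the setting: 8 were raised and 7 lowered with DESeq2, 3 and 4 with limma-voom, 12 and 7 with a filter of 10 reads in every library of a group, and 3 and 1 without U7 ASO replicate 1. Among all 14380 loci tested, 4.96% passed, 4.49% as raised and 0.473% as lowered. The share of ancient LINE loci raised was 2.40%, and the share lowered, which is 1 locus, was 0.342%. For L2 loci these shares were 2.03% and 0.773%, and for MIR loci 1.26% and 0.360%. The raised share over all loci takes in LTR12 and its endogenous retrovirus HERV9. Outside these, 317 of 13917 tested loci were raised. The filter admits a locus without control reads when its U7 ASO libraries hold enough, so these shares hold for tested loci and not for the whole set. At 57 of the 292 loci (19.5%) the groups were apart, 29 of them higher and 28 lower with the U7 ASO, against 20.6% of all loci tested in either direction. Over all 14380 loci, 1755 were apart and higher and 1202 apart and lower. The median log2 fold change was −0.07, against 0.06 for all loci tested. By name, 3 of 150 tested L3 loci, 2 of 29 L3b loci and 2 of 7 L4_A_Mam loci were raised, and the lowered locus was the leading copy of L2-1_Crp.

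**Figure D3:**
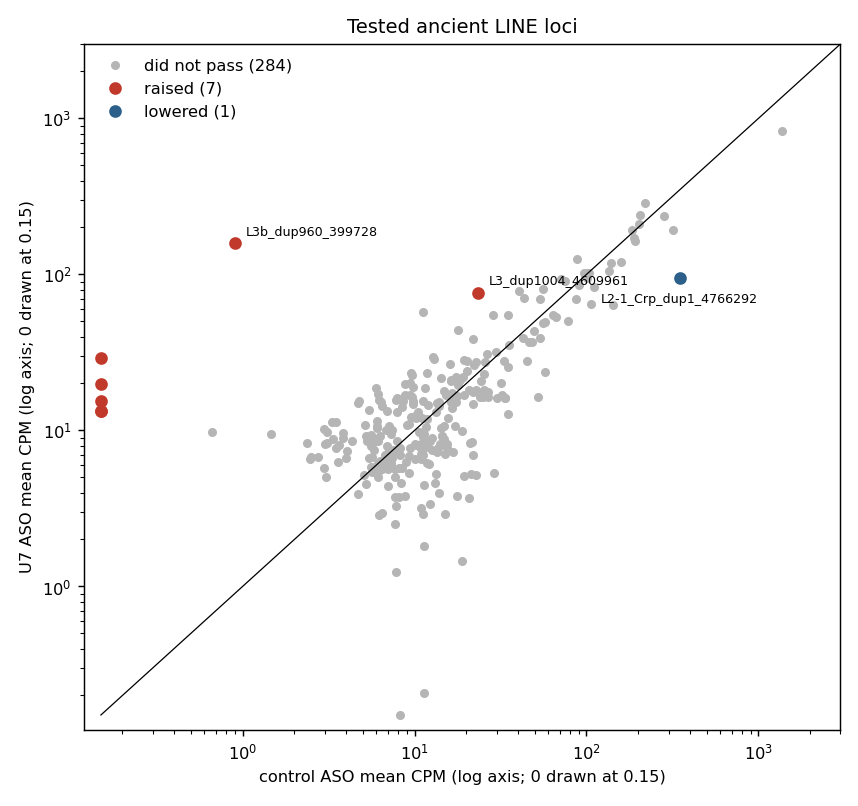
Mean CPM of each of the 292 tested ancient LINE loci in the U7 ASO libraries (vertical) and the control libraries (horizontal), on log axes, with equal levels along the line and means of 0 drawn at 0.15. Most of the 284 loci that did not pass lie along the line, and 5 of the 7 raised loci have 0 control reads.

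Among the copies with a mean of at least 50 reads per library, most had a log2 fold change of less than 1 in size. There were 49 copies at this depth, 41 of them below that size and 8 at or above it, with a median of −0.14 over the 49. Of the 49, 2 were raised and 1 was lowered. None of the most read L3 copies passed: L3_dup2213_2409508 had 244, 254 and 211 CPM with the U7 ASO, against 229.8, 281 and 339 CPM in controls (log2 fold change −0.26, adjusted p = 0.870). L3_dup1730_3126869 averaged 287 ± 44.3 CPM with the U7 ASO and 218 ± 44.9 CPM in controls (0.40, adjusted p = 0.708). L3_dup385_5099201 and L3_dup435_4663237 had log2 fold changes of 0.06 and 0.05. The leading L4 copy, L4_C_Mam_dup266_2409507, has the identifier number just before that of L3_dup2213_2409508, and averaged 242 ± 54.9 CPM with the U7 ASO and 205 ± 24.0 CPM in controls (0.24, adjusted p = 0.897). Of the other deep MamRTE1 copies, MamRTE1_dup3_3460354 averaged 194 ± 58.4 and 318 ± 74.8 CPM with the U7 ASO and in controls (−0.71, adjusted p = 0.325), and MamRTE1_dup147_1929952 and MamRTE1_dup110_3567851 had log2 fold changes of −0.21 and −0.14.

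The raised copy with the most reads was an L3b copy, L3b_dup960_399728. It had 225, 271 and 305 reads in the U7 ASO libraries, against 0, 4 and 0 reads in the control libraries. This came to 159 ± 14.5 CPM with the U7 ASO and 0.902 ± 1.56 CPM in controls (SD, n = 3 each), a ratio of 184 with a 95% counting interval from 71.4 to 676 (adjusted p = 1.53e-05, edgeR quasi-likelihood test). It passed in all 15 settings tried. The size of the ratio rests on the 4 reads of control replicate 2, without which the control group has no read at this locus.

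Another 5 raised copies had no control reads at all. Their folds are set against 3 reads over the control group, as lower bounds for counting error only. They leave out the spread between libraries, so the lower end of the test's 95% interval, on the log2 scale, is also given. L3_dup88_4126426 held 25, 46 and 78 reads in the U7 ASO libraries, a counting bound of 45.5-fold (interval from 5.87, adjusted p = 9.33e-04). L4_A_Mam_dup5_4126427, the next identifier number, held 21, 24 and 57 reads, a counting bound of 31.2-fold (interval from 4.93, adjusted p = 0.00398). L3b_dup503_3169204 held 34, 17 and 26 reads (counting bound 23.5-fold, interval from 4.24, adjusted p = 0.0105). L3_dup1537_3108077 held 13, 12 and 44 reads (counting bound 21.1-fold, interval from 3.62, adjusted p = 0.0265). L4_A_Mam_dup280_3954136 held 22, 14 and 32 reads (counting bound 20.8-fold, interval from 3.77, adjusted p = 0.0211). These 5 are all the tested loci of the set with 0 control reads, and the filter let them in through their U7 ASO reads. L3_dup88_4126426 kept its call in all 15 settings. L4_A_Mam_dup5_4126427 kept its call in 13, losing it with limma-voom (adjusted p = 0.0534) and without U7 ASO replicate 3 (adjusted p = 0.0858). L3b_dup503_3169204 kept its call in 12, losing it with limma-voom (adjusted p = 0.0623) and without U7 ASO replicate 1 or 3 (adjusted p = 0.103 and 0.0637). L3_dup1537_3108077 and L4_A_Mam_dup280_3954136 kept theirs in 8 and 9 of them and lost it, among others, without U7 ASO replicate 1, 2 or 3.

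The last raised copy, L3_dup1004_4609961, was read in both groups. It had 118, 59.4 and 52.0 CPM in the U7 ASO libraries, against 24.2, 23.7 and 22.6 CPM in the control libraries, with U7 ASO replicate 1 well above the other 2. Its log2 fold change was 1.70 (SE 0.41, 95% interval 0.81 to 2.58, adjusted p = 0.0256). The call was lost in 6 of the 14 alternatives, with a log2 fold change of 1.24 (adjusted p = 0.166) without U7 ASO replicate 1.

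The lowered copy, L2-1_Crp_dup1_4766292, had 223, 120 and 130 reads in the U7 ASO libraries, against 715, 500 and 385 reads in the control libraries. It averaged 95.5 ± 39.5 CPM with the U7 ASO and 349 ± 113 CPM in controls (SD, n = 3 each), which on the log2 scale is a fold change of −1.87 (SE 0.35, adjusted p = 0.00429), and passed in all 15 settings.

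**Figure D4:**
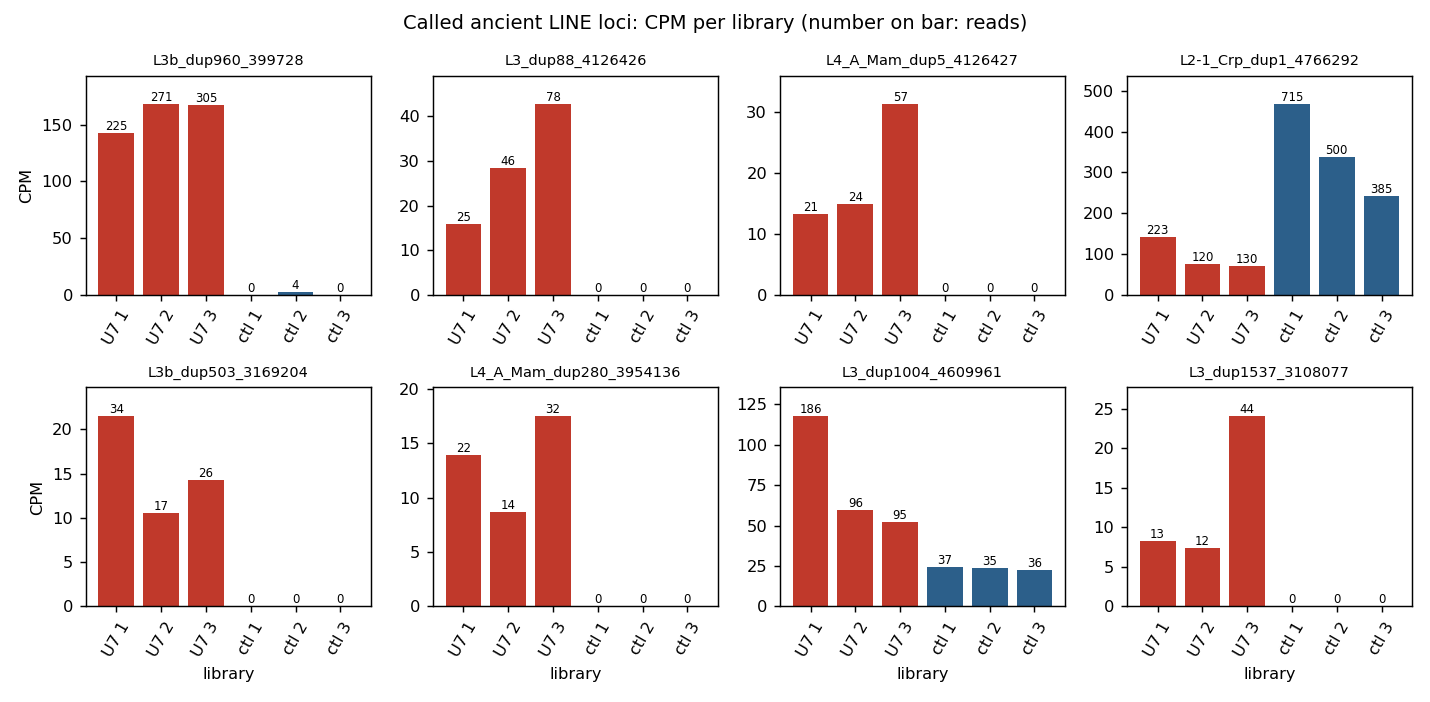
CPM per library of the 8 ancient LINE loci that passed, with the reads written above each bar, U7 ASO libraries in red on the left and control libraries in blue on the right. The 5 loci with 0 control reads, L3b_dup960_399728 with 4, the modest rise of L3_dup1004_4609961 and the fall of L2-1_Crp_dup1_4766292 can be told apart.

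The number that ends an identifier rises from row to row through the whole table, and loci with close numbers were read together in several places. Of the 7 raised ancient LINE loci, 5 had a locus of LTR12 or HERV9 that was itself raised no more than 20 numbers away. HERV9 is an endogenous retrovirus and LTR12 its long terminal repeat. Of the 285 tested ancient LINE loci that were not raised, 3 did. Over all 13917 tested loci outside LTR12 and HERV9 the figure was 173, and 122 of these were among the 317 raised ones. Of the 5 ancient LINE loci, L3_dup88_4126426, L4_A_Mam_dup5_4126427, L3_dup1537_3108077 and L4_A_Mam_dup280_3954136 had no control reads and passed the filter through their U7 ASO reads. L3_dup88_4126426 and L4_A_Mam_dup5_4126427 have consecutive numbers and the same raised LTR12 and HERV9 neighbours, so they are not separate instances. Whether close running numbers mean adjacent positions in the genome is not given in the sources used here, and the part of the LTR12 and HERV9 transcripts in these rises was not tested.

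Around L3b_dup960_399728, 6 of 8 tested neighbours were raised. LTR12C_dup162_399724, 4 numbers before it, held 1059, 550 and 695 reads with the U7 ASO, against 0, 0 and 20 in controls. MIR_dup15096_399729, just after it, held 70, 40 and 55 reads with the U7 ASO and 0 in each control library, and AluJo_dup6151_399726, MLT1L_dup805_399734, ERV3-16A3_LTR_dup68_399727 and LTR53_dup20_399742 were raised as well. Summed over the 21 listed neighbours of L3b_dup960_399728, reads numbered 3415 in the U7 ASO libraries and 81 in the control libraries.

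The pair L3_dup88_4126426 and L4_A_Mam_dup5_4126427 follows LTR12D_4126420 and HERV9NC-int_4126421 in the numbering. LTR12D_4126420 held 151, 127 and 124 reads with the U7 ASO, against 0 in every control library, and HERV9NC-int_4126421 held 48, 60 and 48 reads with the U7 ASO and 1, 0 and 0 in controls. Whether the 2 loci of the pair are read from 1 transcript was not tested. L3_dup1537_3108077 comes 3 numbers after LTR12C_dup70_3108074, which held 412, 333 and 270 reads with the U7 ASO, against 0 in every control library. L4_A_Mam_dup280_3954136 comes 17 numbers after LTR12C_dup132_3954119 (148, 65 and 180 reads with the U7 ASO and 0 in each control library), and all 7 of its tested neighbours were raised, among them 3 copies of MER76-int.

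The other called loci had no such neighbours. L3b_dup503_3169204 had no listed locus within 20 running numbers, the nearest being 29 away and the nearest raised LTR12 or HERV9 locus 2706 away. For L3_dup1004_4609961, 2 of the 20 listed neighbours were tested and neither passed, and its neighbours together held 243 reads with the U7 ASO and 207 in controls. For L2-1_Crp_dup1_4766292, 1 neighbour was tested and did not pass, at a log2 fold change of 0.81 (adjusted p = 0.718), and the 15 listed neighbours held 178 reads with the U7 ASO and 179 in controls. Among them L2c_dup3922_4766287, not tested and named after its values were seen, held 0, 2 and 2 reads with the U7 ASO and 25, 4 and 18 in controls.

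**Figure D5:**
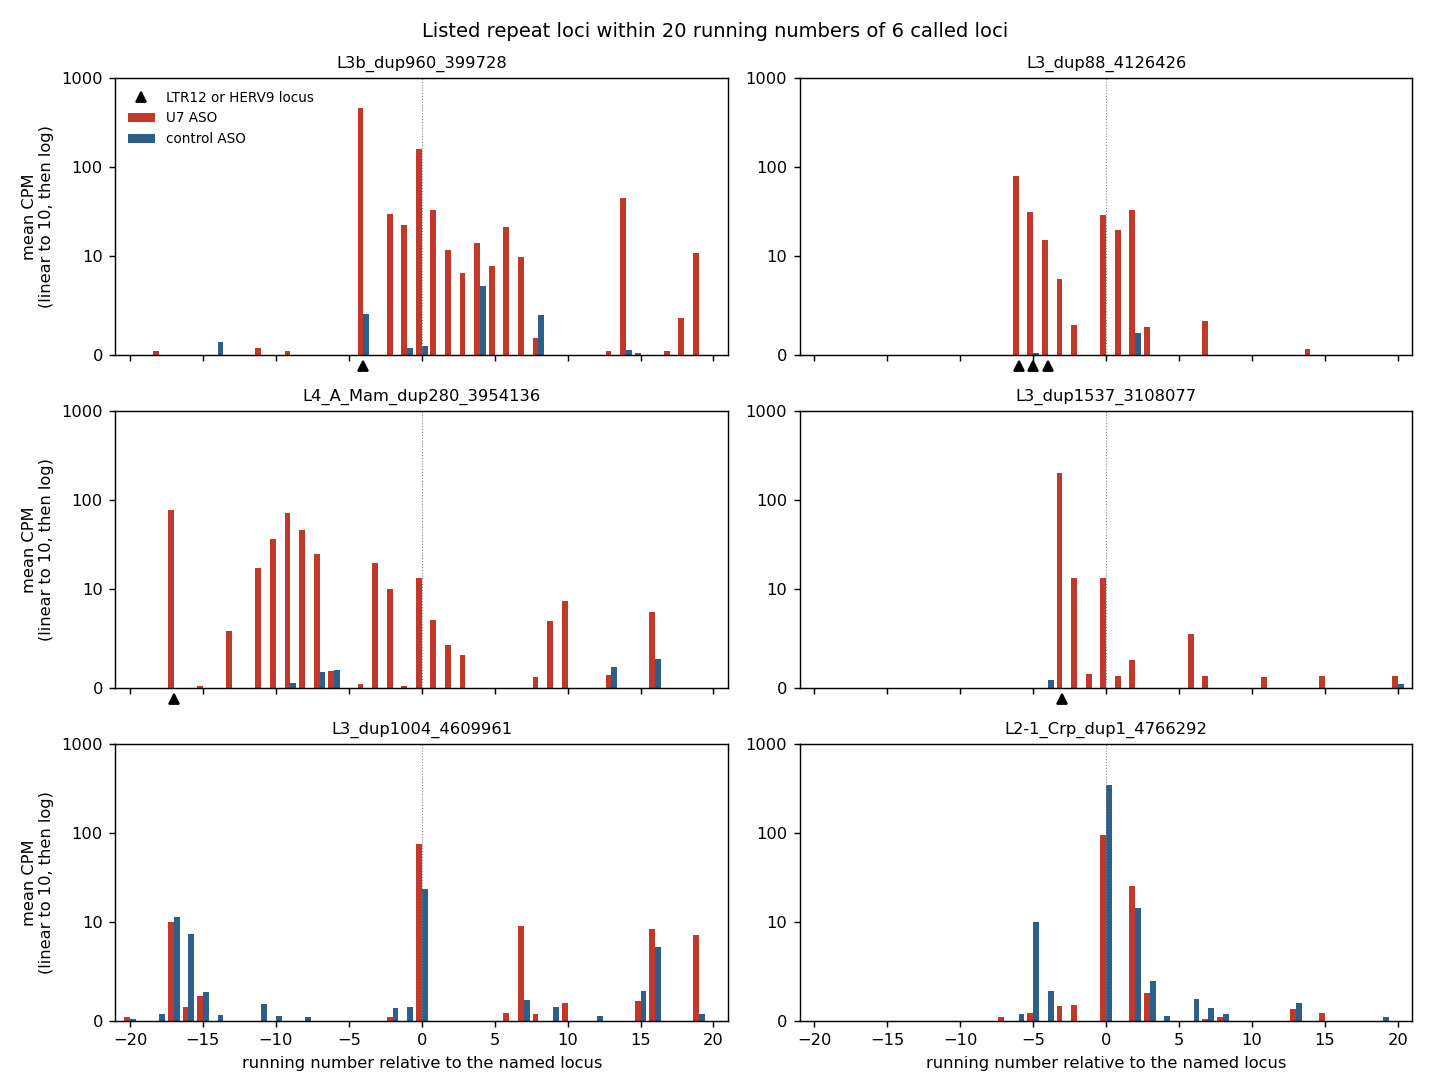
Mean CPM of listed repeat loci within 20 running numbers of 6 called ancient LINE loci (position 0), U7 ASO in red left of control ASO in blue, on an axis that is linear to 10 and logarithmic above, with triangles at LTR12 and HERV9 loci. In 4 panels a run of loci read almost solely in the U7 ASO libraries includes an LTR12 or HERV9 locus, and in the lower 2 panels no such locus is marked.

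The copy with the most reads, MamRTE1_dup7_4441273, had 23 listed neighbours within 20 running numbers, of which 13 had too few reads to be tested and 10 were tested without passing. Of these 10, 5 had a positive and 5 a negative log2 fold change, between 0.50 for FLAM_A_dup23_4441263 and −0.78 for L2c_dup29_4441279. The neighbour with the most reads, (CTC)n_4441278, had 2000, 1772 and 2167 reads in the U7 ASO libraries and 2278, 2171 and 2018 in the control libraries (log2 fold change −0.25, adjusted p = 0.835).

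Beyond the called loci, 22 tested ancient LINE loci had an unadjusted p below 0.05, of which 17 were lower with the U7 ASO. Over all loci, 12.3% had such a p in either direction, called loci included, and 30 of the 292 ancient LINE loci did. The directions of all loci at this p were not counted. The nearest to the threshold, named here after their values were seen, were both L3 copies with lower values. L3_dup860_3538037 had 84, 141 and 90 reads in the U7 ASO libraries, against 231, 211 and 217 in the control libraries (log2 fold change −1.18, adjusted p = 0.0545), and passed in 6 of the 15 settings. L3_dup387_485083 had 38, 16 and 28 reads with the U7 ASO, against 74, 58 and 110 in controls (−1.66, adjusted p = 0.0602), and passed in 5. L3_dup1843_636188, with 12, 10 and 16 reads in the control libraries, was the 1 tested locus without a U7 ASO read. For counting error only, it was at least 13.8-fold lower with the U7 ASO. The 95% interval of its log2 fold change ran from −11.4 to −2.08, and it did not pass (adjusted p = 0.131).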

How the data were processed

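RNA was measured in 6 HEK293T libraries, grouped by sample title. For every library the authors deposited a list of repeat loci with whole-number counts of reads, not normalized. The submitters' processing notes name GRCh38, featureCounts 1.5.0-p1 (Subread), STAR 2.5.3a and FastQC 0.11.5. Which repeat annotation was used, whether strand was counted and how multiply mapped reads were treated is not given in the sources used here. Even numbers made up between 67.4% and 74.1% of the counts above 0 in the set, per library.

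Repeat names were read from the identifiers. Counts as deposited, per locus and summed per name, were tested across the whole table with edgeR 4.0.16 (glmQLFit and glmQLFTest, two-sided, R 4.3.3), TMM scaling and filterByExpr (minimum count 10, minimum total 15). P-values were adjusted by Benjamini-Hochberg across the 14380 loci or the 2236 names tested, and a feature passed below an adjusted p of 0.05. CPM are scaled separately for loci and for names. Standard errors were obtained as the log2 fold change divided by the root of F. Counting intervals are exact 95% intervals of the ratio and, like the floor of 3 reads, cover counting error only, since reads are not independent molecules. All tested names, all called loci and the 10 loci with the most reads are named. The code was tested on simulated counts. Alternatives were DESeq2 1.42.0, limma-voom (limma 3.58.1), other scalings and filters, a replicate block and each library left out. The members and lists were chosen with earlier results of these data known. The labels call the libraries biological replicates without saying whether cultures were separate, so p-values measure the spread between these libraries.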

Additional observations from a re-analysis of the deposited data

How the results depend on the processing

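L2-1_Crp, and among loci L3b_dup960_399728, L3_dup88_4126426 and L2-1_Crp_dup1_4766292, kept their direction and their call in all 14 alternatives run for them; the sum of L2-1_Crp without its leading locus held too few reads to be tested. The number of ancient LINE loci called was 8, and was 15 with DESeq2 and 19 with a filter of 10 reads in every library of a group, which tested fewer loci; both include the 8. With limma-voom 7 loci were called, 4 of them among the 8, and with no count filter 6, 5 of them among the 8. It ranged from 4 to 7 when 1 library was left out, with 4 without U7 ASO replicate 1 and 5 without U7 ASO replicate 3. The number of names called was 1, and 2 with limma-voom and with a replicate block, MamRTE1 being the second; it ranged from 1 to 2 when 1 library was left out. The log2 ratio of the summed CPM was −0.20, moved to −0.15 with library totals only and to −0.14 without the locus with the most reads, and ranged from −0.23 to −0.15 when 1 library was left out. The cause of these moves was not tested.

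Whether replicate numbers shared between the groups pair the libraries is not settled. Over names, deviations from the group means correlated at 0.116, −0.03 and 0.121 for same-numbered libraries and between −0.157 and 0.058 for the others. Of all names tested, 57 passed in the main setting and 133 with the replicate block. Of all loci tested, 713 passed in the main setting and 676 with the replicate block. With the replicate block 9 loci were called, 6 of them among the 8, and MamRTE1 had a log2 fold change of −0.53 (adjusted p = 0.0110).

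Reversals were of values near 0 that passed in no setting. X9_LINE was at −0.0033 with limma-voom, −5.95e-05 with the stricter filter and −0.0197 with the replicate block. L3 was at 0.0207 with library totals only, and X6A_LINE at 0.0302 without its leading locus. With upper-quartile scaling, which moved the median log2 fold change of all loci from 0.06 to −0.09, L3_dup385_5099201 was at −0.0890 and L3_dup435_4663237 at −0.0998, close to that median. With 1 library left out, the ranges were −0.0553 to 0.0153 for L3, −0.0359 to 0.27 for L4_A_Mam, −0.113 to 0.297 for L4_B_Mam, −0.28 to 0.00566 for X6A_LINE, −0.19 to 0.15 for X9_LINE, −0.104 to 0.209 for L3_dup385_5099201 and −0.0706 to 0.18 for L3_dup435_4663237. With few reads per locus, changes at the untested loci were not detectable at this depth.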
